A study of Mus musculus with 20 samples.

Results

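The 28 genes described here are the genes of cholesterol synthesis and of the sterol regulatory element binding proteins (SREBPs) that control it, together with 3 genes of sterol transport and uptake. They were chosen by gene symbol, and all 28 were found among the 22090 genes of the count table. RNA sequencing had been done on 20 tissues from the back skin of 8 female mice of the hairless strain SKH-1. The mice were 7 months old when the experiment began. Then 4 were irradiated with ultraviolet light (UVR) for 28 weeks and 4 were not, and the tissues were taken after those weeks. The tissues were 8 of normal skin (NS), 8 of actinic keratosis (AK), the precursor lesion, and 4 of cutaneous squamous cell carcinoma (cSCC). By the paper the AK were of different grades, which the labels do not give. All AK and cSCC and some of the NS tissues came from the 4 irradiated mice, and the labels give neither the mouse of a tissue nor which NS were irradiated, so the tissues were treated as independent and p-values may be too small. The question was how far the levels of these genes differed between NS, AK and cSCC.

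Cells build cholesterol from acetyl-CoA by way of mevalonate, isoprenoid units, squalene and lanosterol. When sterols are scarce in the endoplasmic reticulum, the escort protein Scap carries the SREBPs to the Golgi, where proteases release the part that enters the nucleus and switches on the genes of the pathway. When sterols are plentiful, the Insig proteins hold Scap back. In skin, cholesterol is a main lipid of the epidermal barrier, sebaceous glands secrete sterols and other lipids, and 7-dehydrocholesterol, the substrate of Dhcr7, is turned into vitamin D precursor by ultraviolet B light.

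Promoter sequences of 3 members that were lower in cSCC than in AK are shown because the SREBPs act on such windows, mostly together with NF-Y, which binds CCAAT, and Sp1, which binds GC boxes. Each runs from 250 bases before to 50 bases after the RefSeq transcription start (GRCm38.p6), 5′ to 3′ on the strand of the gene. Capitals mark the sterol regulatory element TCACNCCAC, the NF-Y box CCAAT and the GC box GGGCGG on either strand, and no marked matches overlap in these windows. Hmgcs1 lies at chr13:119690101-119690400 on the plus strand, Hsd17b7 at chr1:169969156-169969455 on the minus strand and Lbr at chr1:181842352-181842651 on the minus strand.
Hmgcs1: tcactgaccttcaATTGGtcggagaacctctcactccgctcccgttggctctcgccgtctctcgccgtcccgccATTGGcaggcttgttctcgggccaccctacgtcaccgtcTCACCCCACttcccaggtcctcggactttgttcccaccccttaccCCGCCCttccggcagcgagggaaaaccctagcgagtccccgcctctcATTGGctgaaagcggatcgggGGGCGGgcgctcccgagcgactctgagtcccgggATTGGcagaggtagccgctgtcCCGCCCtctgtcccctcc
Hsd17b7: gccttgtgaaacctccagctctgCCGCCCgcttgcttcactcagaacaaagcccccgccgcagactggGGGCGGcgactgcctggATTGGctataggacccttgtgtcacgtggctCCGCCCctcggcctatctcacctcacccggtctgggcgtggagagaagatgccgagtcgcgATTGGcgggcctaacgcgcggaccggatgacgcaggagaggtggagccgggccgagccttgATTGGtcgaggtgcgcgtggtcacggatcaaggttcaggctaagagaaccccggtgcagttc
Lbr: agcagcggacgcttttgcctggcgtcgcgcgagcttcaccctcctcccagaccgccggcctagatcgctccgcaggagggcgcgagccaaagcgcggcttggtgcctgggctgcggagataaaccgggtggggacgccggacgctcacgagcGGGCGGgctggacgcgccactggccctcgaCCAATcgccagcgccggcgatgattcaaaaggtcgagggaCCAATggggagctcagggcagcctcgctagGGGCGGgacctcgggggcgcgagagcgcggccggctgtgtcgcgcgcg

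The sterol regulatory element was matched once in the Hmgcs1 window, beginning 137 bases before the start, where it reads TCACCCCAC. Of the 28 members, 23 had a promoter in the RefSeq table, and Hmgcs1 was the 1 member with this match (4.35% of the 23), against 1.44% of 27025 genes. The NF-Y box was found in 21 of 23 member promoters (91.3%) and in 41.1% of all genes. The GC box was likewise found in 21 of 23, against 38.2% of all genes. The Hsd17b7 window held 3 NF-Y boxes and 3 GC boxes, and the Lbr window 2 of each. These letters describe the windows and show no binding.

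Total counts ranged from 775750 to 14055206 per tissue, so that 3 counts corresponded to 0.225 CPM in the deepest library and 3.78 CPM in the next to smallest, AK replicate 12. CPM are counts scaled to a common library total with TMM factors, a normalization that corrects for the makeup of each library. Floors and levels of single tissues carry counting error, and Tm7sf2 lay below the floor in cSCC replicate 18 (1.39 CPM) and cSCC replicate 20 (2.28 CPM). All tissues expressed the keratinocyte gene Krt14, with 2917 CPM in the lowest. Among the cSCC, 3 of 4 libraries stood apart. Haemoglobin genes took 46.8% of the counts of replicate 18, against at most 14.3% in any NS or AK. A list of 8 lung epithelium genes summed to 35993 CPM in replicate 20 and to at most 51.7 CPM in every NS and AK tissue. A list of 8 heart muscle genes summed to 50378 CPM in replicate 21 and to at most 73.2 CPM in NS and AK. Replicate 19 had 1.44% haemoglobin, 3.95 CPM of lung genes and 103 CPM of heart genes. The fits with cSCC were therefore also run with each tissue left out and with replicates 20 and 21 left out together. No fit left out replicates 18, 20 and 21 together, and not every cSCC value below has such a result beside it.

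**Figure D1:**
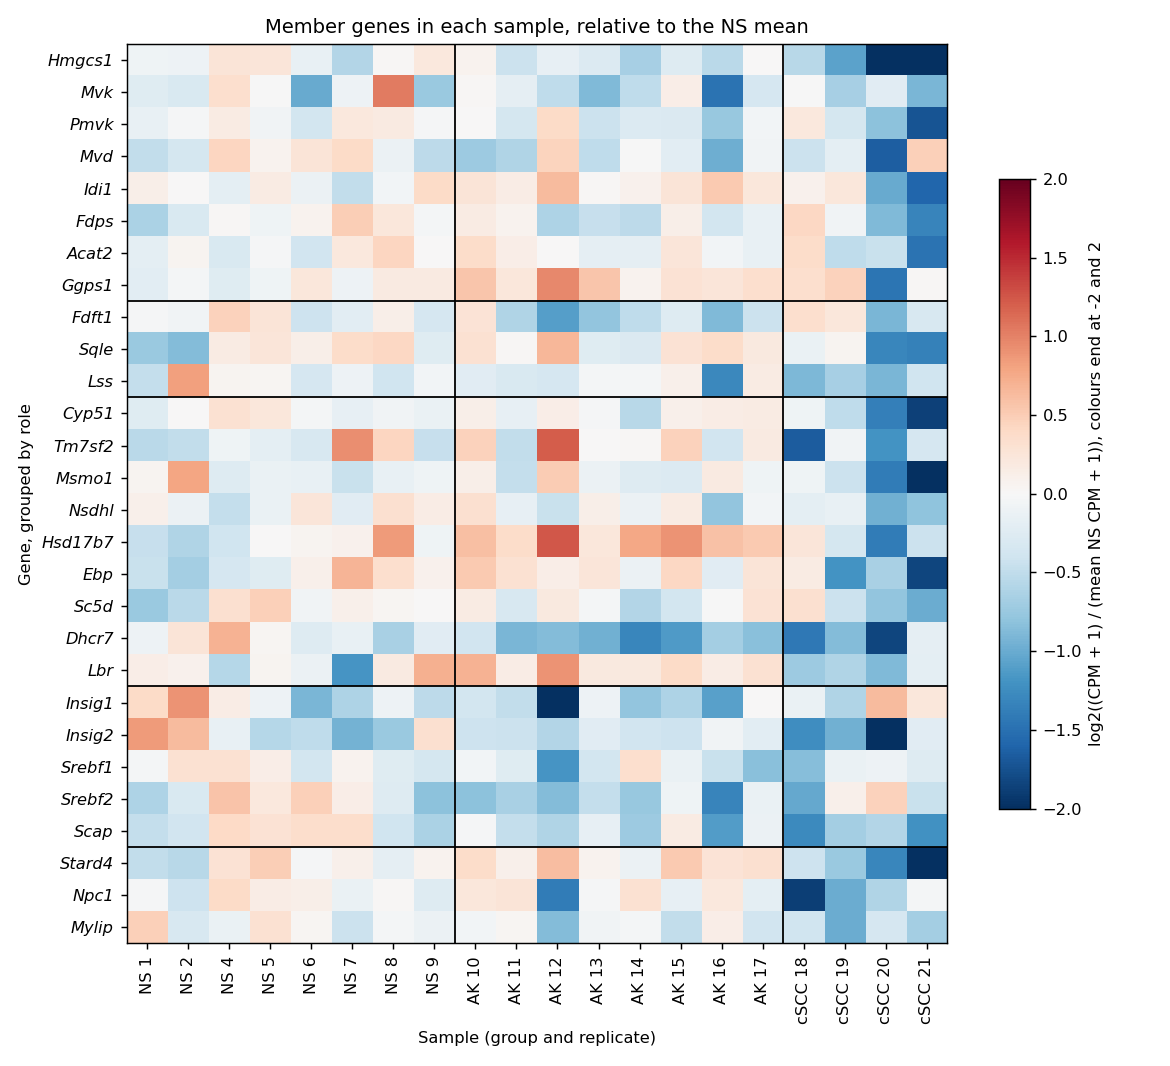
Level of each of the 28 genes (rows, grouped by role) in each tissue (columns), as the log2 ratio of CPM + 1 to the NS mean of CPM + 1. Blue is below and red above the NS mean, and most rows are blue in cSCC replicates 20 and 21, whereas Dhcr7 is blue and Hsd17b7 red in all 8 AK.

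Together the 28 genes made up 3434 ± 190 CPM (SD, n = 8) in NS and 3388 ± 372 CPM (SD, n = 8) in AK. In cSCC they summed to 3104, 2521, 1554 and 1390 CPM in replicates 18, 19, 20 and 21. The sum was thus close to the NS range of 3195 to 3649 CPM in replicate 18 and lowest in the libraries with lung and heart genes. Scaling decided where replicate 18 lay. By library size alone its sum was 1579 CPM, against 3181 to 4040 CPM in NS, and with the haemoglobin genes left out of the library size it was 2968 CPM. The enzymes of the pathway, 20 of the 28 genes, made up 2830 ± 198 CPM (SD, n = 8) of the NS sum.

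**Figure D2:**
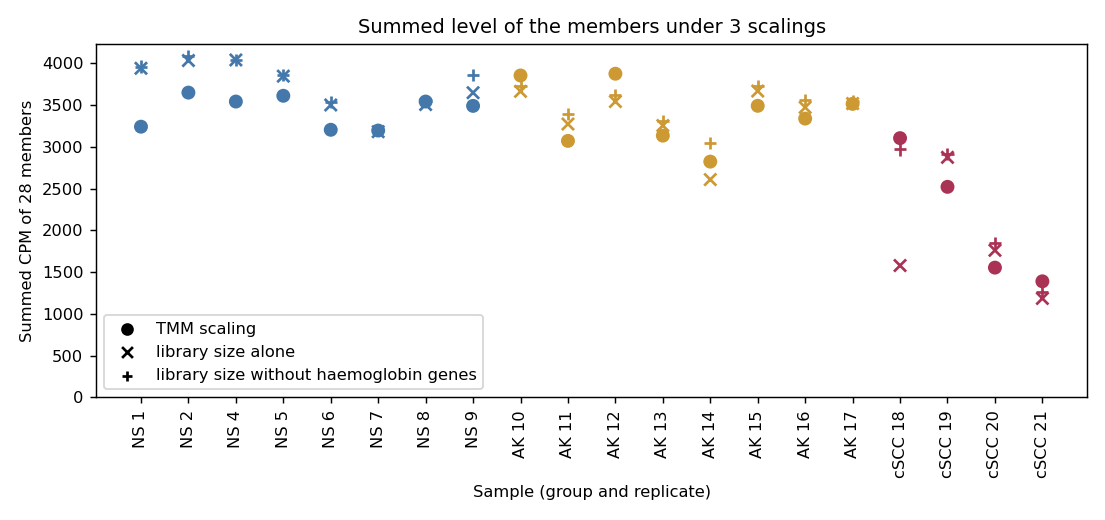
Summed CPM of the 28 genes in each tissue under 3 scalings (filled circle, TMM; cross, library size alone; plus, library size without haemoglobin genes). The scalings part most in cSCC replicate 18 (3104, 1579 and 2968 CPM), while replicates 20 and 21 lie below every NS and AK under each of them.

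Levels of different genes were compared per kilobase of exon, with the exons of all annotated transcripts of a gene merged. In NS the highest were Hmgcs1 (92.3 ± 16.7 CPM per kb, SD, n = 8), the HMG-CoA synthase that feeds mevalonate synthesis, and Msmo1 (90.8 ± 28), a demethylase of the sterol ring, which did not differ beyond their spread. Ebp, Acat2, Insig2, Cyp51 and Idi1 followed with means of 62.6 to 85.8 CPM per kb, and their ranges overlapped. The genes of the SREBPs themselves were near the bottom, with 5.85 CPM per kb for Srebf2, which chiefly drives sterol genes, and 3.27 for Srebf1, which chiefly drives fatty acid genes. Lss (2.85) and Tm7sf2 (1.49) were the lowest, with merged exon lengths of 10787 and 4403 bases, and the order depends on these lengths.

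In AK vs. NS, Dhcr7, the last enzyme of the Kandutsch-Russell branch, fell and Hsd17b7, a ketoreductase acting on the sterol ring, rose, while the other 26 members passed the test in neither direction. The test was edgeR's quasi-likelihood test, and a gene was called when its Benjamini-Hochberg adjusted p over all genes tested was under 0.05 and its fold change was above 1.5 or below 0.67. All 28 members were tested in each of the 3 comparisons. The share called was 1 of 28 in each direction, against 2.26% of the 11677 genes tested called higher and 2.38% called lower, so the counts lay near the background. The median log2 fold change was -0.15 for the members and -0.04 for all genes, and 19 of 28 members lay below 0, against 53% of all genes. At an unadjusted p under 0.05 there were 5 members, beside 24.6% of all genes. In bulk tissue, fewer cells of a type and less RNA per cell cannot be told apart.

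Dhcr7 ranged from 22.2 to 57.3 CPM in NS (median 32.2) and from 13.6 to 26.7 CPM in AK (median 18.6). Every AK but replicate 10 lay below every NS tissue. The log2 fold change was -0.92 (SE 0.20, edgeR adjusted p = 0.0190), that is 1.89-fold lower, and the call was kept when any 1 of the 16 tissues was left out (adjusted p between 0.0104 and 0.0451). Among the alternatives tried it was lost only in a single fit of all 20 tissues (adjusted p = 0.0886). In cSCC Dhcr7 was measured at 12.5, 18.9, 9.10 and 30.9 CPM in replicates 18 to 21. The first 3 lay below every NS, whereas replicate 21 lay within the NS range, and cSCC vs. NS gave -0.88 (SE 0.35, adjusted p = 0.0939). Without replicate 21 the change was -1.30 (adjusted p = 0.0232).

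Hsd17b7 ranged from 40.3 to 113 CPM in NS (median 60.1) and from 72.9 to 148 CPM in AK (median 94.0). The NS tissues lay below every AK except replicate 8, the tissue with 113 CPM. The rise in AK was 0.67 on the log2 scale (SE 0.19, edgeR adjusted p = 0.0494), and it stood at the limit of the test. When 1 tissue at a time was left out, the call was lost in 15 of 16 cases, with log2 fold changes between 0.57 and 0.85, and kept without NS replicate 8 (adjusted p = 0.0104). In cSCC the levels were 73.6, 48.3, 22.8 and 45.5 CPM in replicates 18 to 21, so that 1 tissue lay within the AK range and 3 below it.

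Of the members not called in AK vs. NS, Fdft1, squalene synthase, had a log2 fold change of -0.50 (SE 0.18, adjusted p = 0.0942) and Srebf2 of -0.60 (SE 0.22, adjusted p = 0.108). Ggps1, which makes the geranylgeranyl unit for protein prenylation, had 0.42 (SE 0.15, adjusted p = 0.102), with 22.4 to 31.6 CPM in NS and 28.3 to 53.0 CPM in AK. The 5 genes of SREBP control (Srebf1, Srebf2, Scap, Insig1 and Insig2) all had negative values, from -0.61 to -0.31, and none was called. Fdft1 shares 18.3% of its exon bases with Ctsb on the other strand, and the strand used in counting is not stated, so its count may hold reads of Ctsb.

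**Figure D3:**
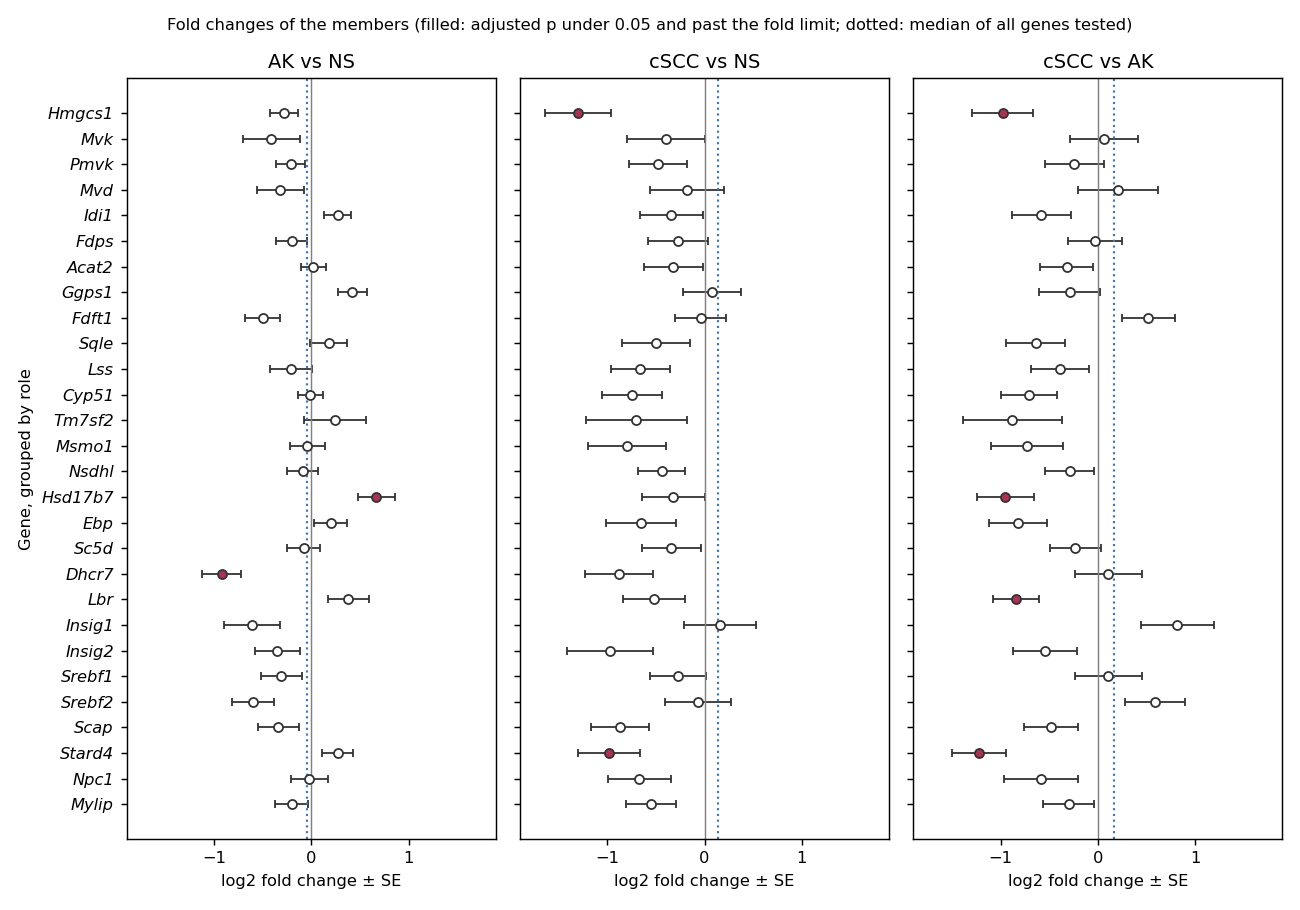
Log2 fold change ± SE of each of the 28 genes for AK against NS (left), cSCC against NS (middle) and cSCC against AK (right), from edgeR. Filled points are the genes called, 2, 2 and 4 in the 3 panels, the solid line marks 0 and the dotted line the median of all genes tested (-0.04, 0.14 and 0.17), and in both panels with cSCC most points lie left of it.

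In cSCC vs. NS, Hmgcs1 at the head of the pathway and Stard4, which carries sterols between membranes, fell, and no member rose. The 2 of 28 called lower lay near the background of 7.65% of the 12097 genes tested, and the 0 called higher stand beside 11.7%. At an unadjusted p under 0.05 there were 7 members, beside 34% of all genes. None of them was higher, and no member was called higher with DESeq2 or with limma voom. The median log2 fold change was -0.49 for the members and 0.14 for all genes, and 26 of 28 members lay below 0, against 43.1% of all genes. By library size alone these medians were -0.82 and -0.17, and without replicates 20 and 21 they were -0.31 and -0.06. In cSCC vs. AK, Stard4, Lbr, Hsd17b7 and Hmgcs1 fell and none rose, 4 of 28 lower beside 8.34% of the 12032 genes tested and 0 higher beside 16%. Here the medians were -0.36 for the members and 0.17 for all genes, with 21 of 28 below 0, against 42.7%. Without replicates 20 and 21 these medians were -0.16 and -0.01. At an unadjusted p under 0.05 there were 8 members, beside 38.4% of all genes. Of these Insig1, which holds Scap in the endoplasmic reticulum, was higher (0.82, SE 0.38, adjusted p = 0.128), and DESeq2 and limma voom called no member higher. The comparisons share their control and tumor tissues, so their values are given side by side and not as support for each other.

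Hmgcs1 ranged from 281 to 509 CPM in NS (median 414) and from 267 to 444 CPM in AK (median 352). In cSCC replicates 18, 19, 20 and 21 it was measured at 287, 202, 95.6 and 85.7 CPM. Replicate 18 lay within both ranges and the other 3 below every NS and AK tissue. The log2 fold change was -1.30 (SE 0.34, edgeR adjusted p = 0.0182) in cSCC vs. NS, that is 2.45-fold lower, and -0.98 (SE 0.31, adjusted p = 0.0314) in cSCC vs. AK. Against NS the call was kept whichever tissue was left out (adjusted p at most 0.0462), but without both replicates 20 and 21 the change was -0.77 and was not called (adjusted p = 0.103). Against AK the call was lost without AK replicate 10, 13 or 17 or without cSCC replicate 20 or 21 (adjusted p between 0.0506 and 0.0783), and the change was -0.47 without both cSCC tissues (adjusted p = 0.227). An antisense gene, Gm48342, shares 12.1% of the Hmgcs1 exon bases.

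Stard4 ranged from 105 to 216 CPM in NS (median 157) and from 142 to 237 CPM in AK (median 189). The cSCC tissues had 115, 91.4, 61.4 and 33.9 CPM in replicates 18 to 21, all below every AK, and 3 of 4 below every NS. The log2 fold change was -1.22 (SE 0.28, edgeR adjusted p = 0.00863) in cSCC vs. AK, that is 2.33-fold lower. This call was kept whichever tissue was left out (adjusted p at most 0.0205) and also without both replicates 20 and 21 (-0.80, adjusted p = 0.0451). In cSCC vs. NS the change was -0.98 (SE 0.32, adjusted p = 0.0454). That call was lost in 8 of 12 omissions, those of NS replicates 4, 5, 6, 7 and 9 and of cSCC replicates 19, 20 and 21 (adjusted p at most 0.0943), and the change was -0.55 without replicates 20 and 21 (adjusted p = 0.251).

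Lbr, the lamin B receptor of the inner nuclear membrane, which also reduces the sterol ring, ranged from 21.1 to 81.1 CPM in NS (median 51.5) and from 54.4 to 92.1 CPM in AK (median 58.7). In cSCC replicates 18 to 21 it was 29.2, 32.1, 26.2 and 42.8 CPM. Lbr and Stard4 were the 2 members of 28 whose cSCC and AK values did not overlap, lower in cSCC. This share lay near the 6.84% of all genes tested. The log2 fold change of Lbr in cSCC vs. AK was -0.84 (SE 0.24, edgeR adjusted p = 0.0226). The change was -1 without replicates 20 and 21 (adjusted p = 0.0283), and so was not smaller in replicates 18 and 19 alone. Against NS the change was -0.52 (SE 0.32, adjusted p = 0.266). The call against AK was lost with limma voom (adjusted p = 0.0780) and among genes with at least 10 counts in every tissue (-0.66, adjusted p = 0.0601).

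For Hsd17b7 the cSCC vs. AK change was -0.95 (SE 0.29, edgeR adjusted p = 0.0273). It was lost without cSCC replicate 19 (-0.95, adjusted p = 0.0506) or 20 (-0.73, adjusted p = 0.0547) and with limma voom (adjusted p = 0.0738), and it was -0.65 without replicates 20 and 21 (adjusted p = 0.146). Against NS its value was -0.32 (SE 0.32, adjusted p = 0.518). In the other comparisons no member had groups that did not overlap, as held for 0.394% (higher) and 0.128% (lower) of all genes in AK vs. NS, 2.7% and 5.73% in cSCC vs. NS, and 3.33% for higher in cSCC vs. AK.

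**Figure D4:**
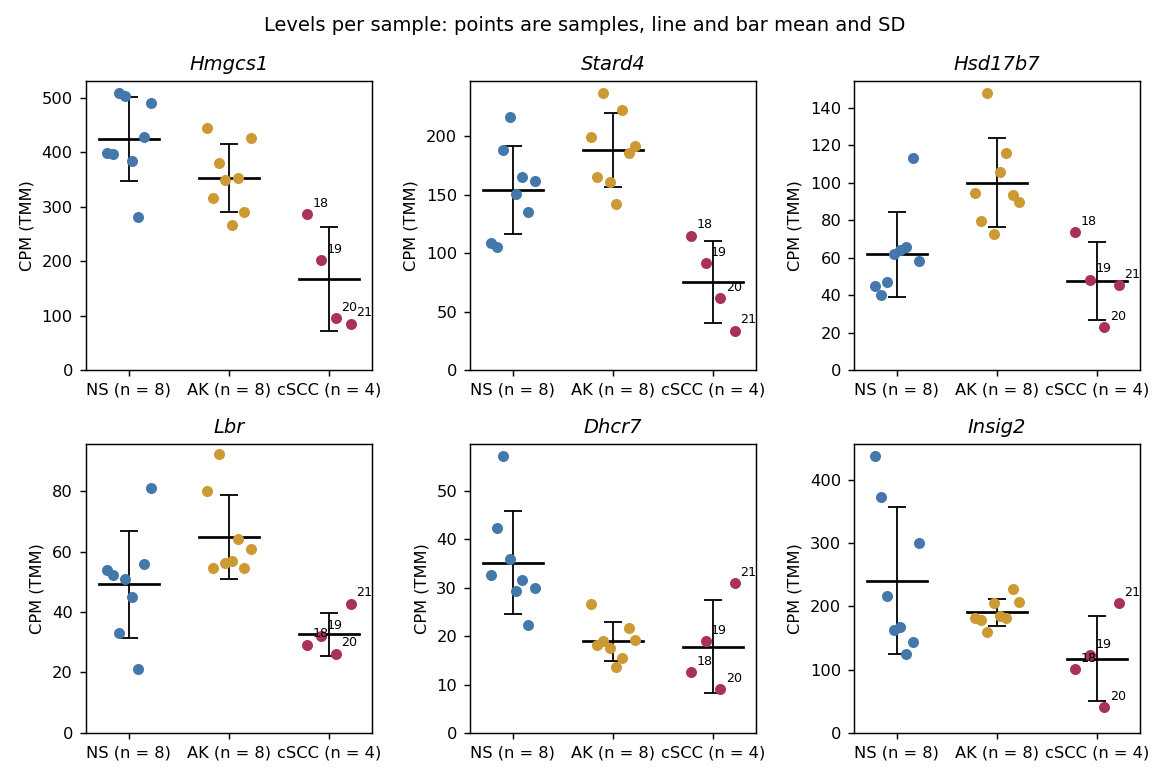
CPM of Hmgcs1, Stard4, Hsd17b7, Lbr, Dhcr7 and Insig2 in each tissue (points), with the mean (line) and SD (bar) of the 8 NS, 8 AK and 4 cSCC, the cSCC replicates numbered. Stard4 and Lbr have no cSCC point within the AK range, Dhcr7 is low in AK, and Hmgcs1 spans 85.7 to 287 CPM in cSCC.

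The other enzymes from acetyl-CoA to mevalonate and isoprenoid units (Mvk, Pmvk, Mvd, Idi1, Fdps, Acat2 and Ggps1) were not called in any comparison. In cSCC vs. NS, 7 of the 8 members of this role lay below 0, Ggps1 being the exception (0.08). Mevalonate kinase, Mvk, was measured at 9.58 to 42.6 CPM in NS and 10.3 to 20.1 CPM in cSCC, with overlapping groups. Idi1, which makes the reactive isoprenoid unit, was 233 and 256 CPM in cSCC replicates 18 and 19, within the NS range of 156 to 286 CPM, and 108 and 72.4 CPM in replicates 20 and 21, below every NS. The prenyl synthase gene Fdps showed the same division, with 210 and 150 CPM against 85.3 and 62.7 CPM and 102 to 222 CPM in NS. Fdps shares 26.7% of its exon bases with Gm43738 on the same strand, so its count is uncertain.

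Of the 3 genes that make squalene and turn it into lanosterol (Fdft1, Sqle and Lss), none was called. Sqle, a rate-limiting monooxygenase, had 125 to 304 CPM in NS, 186 to 363 CPM in AK and 209, 236, 92.2 and 88.5 CPM in cSCC replicates 18 to 21. Its log2 fold change in cSCC vs. AK was -0.64 (SE 0.30, adjusted p = 0.129). Lss, which closes squalene epoxide to lanosterol, was below every NS in cSCC replicates 18, 19 and 20 (16, 18.9 and 15.9 CPM), and cSCC vs. NS gave -0.66 (SE 0.30, adjusted p = 0.134).

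All 9 genes from lanosterol to cholesterol had negative values in cSCC vs. NS, from -0.88 to -0.32, and none was called. Their median was -0.65, beside 0.14 for all genes. Cyp51, the lanosterol demethylase, was 261 and 194 CPM in cSCC replicates 18 and 19 and 107 and 75.1 CPM in 20 and 21, against 235 to 343 CPM in NS and 189 to 312 CPM in AK. Its changes were -0.75 (SE 0.31, adjusted p = 0.0985) vs. NS and -0.71 (SE 0.29, adjusted p = 0.0848) vs. AK. The isomerase gene Ebp had 221, 86.1, 126 and 54.6 CPM in cSCC, of which 3 lay below the AK range of 170 to 286 CPM, and its value vs. AK was -0.82 (SE 0.30, adjusted p = 0.0602). Msmo1 was 212 and 93.4 CPM in cSCC replicates 20 and 21, below the NS range of 408 to 966 CPM, and lay within that range in replicates 18 and 19.

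Among the regulators, Scap had 19.4, 29.9, 31.9 and 20.3 CPM in cSCC replicates 18 to 21, of which 3 lay below the NS range of 30.6 to 64.1 CPM. This was -0.87 vs. NS (SE 0.30, adjusted p = 0.0557). Insig2 was spread widely in NS, from 124 to 437 CPM, and narrowly in AK, from 160 to 228 CPM. Its cSCC values were 101, 123, 41.0 and 205 CPM, and cSCC vs. NS gave -0.97 (SE 0.44, adjusted p = 0.139). Insig1 had 22.9, 16.3, 39.8 and 29.8 CPM in cSCC, all within the NS range of 13 to 47.8 CPM and 2 above the AK range of 3.78 to 25.4 CPM. Against AK, 3 of the 5 regulators (Insig1, Srebf1 and Srebf2) had values above 0, with a median of 0.11 over the 5, and none was called. Srebf1 and Srebf2 in cSCC lay between 9.72 and 17.1 CPM and between 20.1 and 58.0 CPM, overlapping NS and AK. Of the transport genes, Npc1, which exports cholesterol from lysosomes, was 9.72 CPM in cSCC replicate 18 and 37.4 CPM in replicate 21, the reverse of the order for Hmgcs1, and Mylip, a ligase that degrades lipoprotein receptors, had 18.5 to 29.6 CPM in cSCC and 27.6 to 52.8 CPM in NS. Neither was called.

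Counted tissue by tissue, 20 of 28 members lay below every NS tissue in cSCC replicate 20, as did 27.8% of all genes tested. The count was 14 in replicate 21 (31.5% of all genes), 11 in replicate 19 (27%) and 8 in replicate 18 (26.2%). The sets differed. Replicates 19, 20 and 21 had Hmgcs1, Cyp51, Stard4 and Acat2 below every NS, whereas in replicate 18 none of these 4 was. Srebf1 and Srebf2 were below every NS in replicate 18 and in no other cSCC, Insig2 in replicates 18, 19 and 20, and Scap in replicates 18, 19 and 21. In AK replicates 10 to 17 the counts were 2, 4, 7, 4, 5, 2, 11 and 3 members, beside 6.97%, 9.87%, 27.4%, 13.6%, 12.6%, 8.47%, 22.8% and 12.1% of all genes. The highest count was in replicate 16, and Dhcr7 was among the members in 7 of 8 AK. Ggps1 was the member most often above every NS, in AK replicates 10, 12, 13, 15, 16 and 17 and in cSCC replicates 18 and 19.

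**Figure D5:**
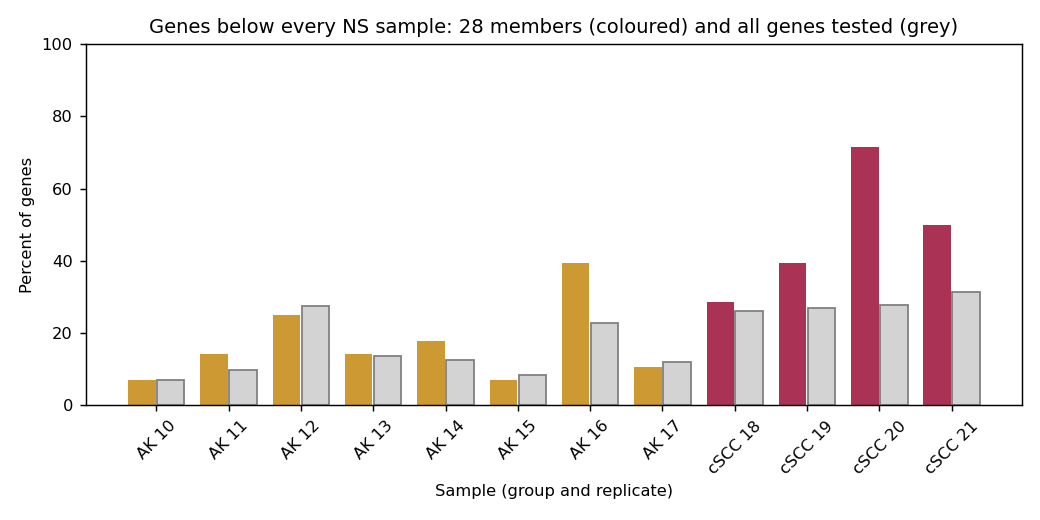
Percent of the 28 genes (colored bars) and of all genes tested (grey bars) that lay below every NS tissue, for each AK and cSCC tissue. In cSCC replicate 18 the bars are alike, whereas in replicate 20 20 of 28 members, against 27.8% of all genes, were below every NS.

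Some lists of genes that mark other cells differed between cSCC and NS, and others overlapped. Over all genes tested, 7.65% were called lower and 11.7% higher in cSCC vs. NS. The list of 14 sebaceous gland genes summed to 1175 to 4417 CPM in NS, 1073 to 2145 CPM in AK and 307 to 1147 CPM in cSCC, and 6 of the 12 tested were lower in cSCC vs. NS, with Awat2 and Mc5r at 0 in all cSCC. The list of 8 differentiated keratinocyte genes summed to 5342 to 15894 CPM in NS and 65.8 to 2396 CPM in cSCC, with 6 of 8 lower, while basal keratinocyte genes overlapped (5312 to 16334 CPM in NS, 3866 to 18488 CPM in cSCC) and none of 7 was called. Of the 7 endothelial genes 6 were higher in cSCC vs. NS, with sums of 110 to 585 CPM against 29.9 to 106 CPM. The adipocyte (219 to 6150 CPM in cSCC, 705 to 5215 CPM in NS), macrophage (682 to 7113 CPM and 1325 to 4727 CPM) and proliferation (174 to 842 CPM and 302 to 902 CPM) sums overlapped between the groups, with Plin1 at 0 in all cSCC. In cSCC vs. NS, 1 of the 6 macrophage genes tested was called higher, and none of the 8 adipocyte and 8 proliferation genes tested was called. Of the 8 skeletal muscle genes 5 were lower in cSCC vs. NS, with sums of 1049, 544, 879 and 8433 CPM in cSCC replicates 18 to 21 against 650 to 9123 CPM in NS. In AK vs. NS, 3 of 12 sebaceous genes and 2 of 8 differentiated keratinocyte genes were called lower, beside 2.38% of all genes. Of the 8 proliferation genes 1 was called higher, beside 2.26% of all genes, and all 8 had values above 0. The part of these cells in the values of the 28 genes was not tested.

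Genes of neighboring pathways were taken from lists set by function. Of 15 fatty acid genes driven by SREBP-1 that were tested in cSCC vs. NS, 4 were lower and 1 higher. Over all genes tested, 7.65% were called lower and 11.7% higher. Elovl6, a fatty acid elongase, had a mean of 152 CPM in NS and 19.5 CPM in cSCC (log2 fold change -2.95, SE 0.67, edgeR adjusted p = 0.00920), and it was also lower in AK vs. NS (-0.97, SE 0.28, adjusted p = 0.0490), a call lost in 12 of 16 omissions of 1 tissue. Me1, which supplies NADPH, had -1.67 (SE 0.29, adjusted p = 0.00283), Pnpla3 -3.56 (SE 0.71, adjusted p = 0.00530) and Acly, which supplies acetyl-CoA to both pathways, -0.83 (SE 0.27, adjusted p = 0.0461). The call of Acly was lost in 10 of 12 omissions and those of the other 3 in none. With limma voom the calls of Acly (-0.71) and Pnpla3 (-3.58, adjusted p = 0.072) were lost. Pnpla3 lay between 0 and 6.83 CPM in cSCC. Gpam was higher (3.12, adjusted p = 0.0284) through replicate 21 with 91.3 CPM, and had -0.47 without it. Against AK, Elovl6, Me1 and Acly were lower and none of 14 was higher, beside 8.34% lower and 16% higher of all genes.

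For sterol efflux, 2 of the 10 genes tested were called higher in cSCC vs. AK. These were the sensor genes Nr1h3 (2.26, SE 0.59, adjusted p = 0.0142) and Nr1h2 (1.63, SE 0.51, adjusted p = 0.0304). Nr1h3 had 2.08, 6.15, 25.0 and 36.6 CPM in cSCC replicates 18 to 21, against 1.26 to 6.03 CPM in AK. Without both replicates 20 and 21 the changes were 0.11 for Nr1h3 (edgeR adjusted p = 0.93) and 0.69 for Nr1h2, and neither was called. Of 16 sterol transport genes, Gramd1c, which moves sterol from the plasma membrane, fell to 20.8, 5.27, 9.10 and 2.65 CPM in cSCC from a mean of 152 CPM in NS (-4.02, SE 0.66, adjusted p = 0.00200), and Osbpl5 and Stard5 were lower as well (-1.20 and -1.12). Vldlr (2.48) and Stard3 (1.65) were higher in cSCC vs. NS. Of all genes tested, 11.7% were called higher and 7.65% lower in cSCC vs. NS, and 16% and 8.34% in cSCC vs. AK. Against AK, Stard3, Gramd1a, Vldlr and, named after its value was seen, Scarb1 were higher and Gramd1c was lower. In the isoprenoid branches, Nus1, a subunit of the dolichol-making enzyme, rose in AK vs. NS (0.61, SE 0.16, adjusted p = 0.0371, lost in 9 of 16 omissions), and Rce1, Dhdds and Pdss2 were higher in cSCC vs. NS (0.94, 1.07 and 1.73). Of the 13 genes of this list 3 were higher in cSCC vs. AK, Rce1, Dhdds and Rabggta, and Nus1 was lower (-1.01, SE 0.26, adjusted p = 0.0149). Many of these calls rested on cSCC replicate 21, the library with heart genes. Without it alone, the higher calls of Nr1h3 (1.39), Nr1h2 (0.53), Gramd1a (1.27), Scarb1 (1.07) and Rabggta (1.09) vs. AK, of Pdss2 (0.76) vs. NS, and of Vldlr (0.30 vs. NS and 0.05 vs. AK), Stard3 (0.60 and 1.26) and Dhdds (0.82 and 0.75) were lost, as were the lower calls of Osbpl5 (-1.06) and Stard5 (-0.90). Without cSCC replicate 19 the calls of Rce1 vs. NS (0.85), Rabggta (1.78) and Scarb1 (2.51) were lost, without replicate 20 those of Stard3 (1.70) and Stard5 (-1.10) vs. NS, and without replicate 18 those of Dhdds (0.97 vs. NS and 0.92 vs. AK). With NS and AK tissues counted too, the call was lost in 9 of 12 omissions for Stard3 and 7 of 12 for Pdss2 vs. NS, and in 8 of 12 for Rabggta, 8 of 10 for Scarb1 and 5 of 12 for Nr1h2 vs. AK. Gramd1c was lower and Rce1 higher in cSCC vs. AK, and Gramd1c lower in cSCC vs. NS, whichever tissue was left out. Nus1 was lower in cSCC vs. AK whichever tissue was left out and not without both replicates 20 and 21 (-0.68).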

How the data were processed

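RNA from 20 skin tissues was sequenced with paired reads. The paper's methods give trimming with Trimmomatic, alignment to GRCm38 with HISAT2 and StringTie. The submitters' processing notes name Trimmomatic 0.36, HISAT2 2.0.5, featureCounts 1.5.2 and the builds hg19 and mm9. These sources differ, the strand of counting is not given in the sources used here, and the table holds no coordinates. The authors deposited raw counts per gene symbol, not normalized.

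Gene positions and exon lengths were taken from GENCODE M21 (GRCm38). CPM used TMM factors over all 20 samples. Groups came from the labels, and each comparison used edgeR 4.0.16 (R 4.3.3) quasi-likelihood fits of the 2 groups compared, on genes kept by filterByExpr, with p-values adjusted over all genes tested. The SE is the size of the log2 fold change divided by the square root of F. The test was tested on simulated data. No pair of the 62 within-group pairs was 1 library deposited again (chi-square per degree of freedom at least 11.3). The 8 AK came from 4 mice, so AK tissues share mice, and the labels do not say which do. By the paper, each mouse gave 1 NS and each irradiated mouse 1 cSCC. The members and lists were chosen with earlier results of these data known. Called members are given with all values, other members by range, and called genes of other pathways up to 6 a list by adjusted p, and some items are not reported here. Alternatives were DESeq2 1.42.0, limma 3.58.1 voom with quality weights, other scalings and filters, an unadjusted p, no fold limit, 1 fit of all 20 samples, an unadjusted equal-variance test per gene as in the paper's methods, and omission of each sample. Library size without haemoglobin genes and the alternatives for other pathway genes were chosen after seeing the data. Python 3.11.15 was used for tables and figures.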

Additional observations from a re-analysis of the deposited data

Results flagged for a closer look

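Of 87 sets of values, those of each member and of the summed level of the members in each of the 3 groups, 7 had a highest or lowest tissue whose gap to the next exceeded the critical value of Dixon's test, which chance gives in about 1 in 20 sets. In NS these were replicate 2 for Lss (55.0 CPM, others 21.7 to 31.9 CPM) and for Msmo1 (966 CPM, others 408 to 576 CPM), and replicate 8 for Hsd17b7 (113 CPM, others 40.3 to 65.6 CPM). In AK they were replicate 16 for Lss (12 CPM, others 24.0 to 34.7 CPM) and replicate 12, a library of 867219 counts, for Tm7sf2 (16.4 CPM, others 4.34 to 9.43 CPM), Ggps1 (53.0 CPM, others 28.3 to 40.0 CPM) and Npc1 (13.9 CPM, others 33.6 to 47.9 CPM). The NS value of Hsd17b7 bears on a call, since its log2 fold change in AK vs. NS was 0.67 with and 0.85 without NS replicate 8.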

How the results depend on the processing

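No paired analysis was possible because the labels do not give the mouse and the groups share no replicate numbers. In AK vs. NS the 1 member higher became 0 with library size alone, upper quartile factors, no filter on low counts and 1 fit of all 20 tissues, and 0 to 1 when 1 tissue was left out. The 1 member lower became 2 with an unadjusted p, with at least 10 counts in every tissue and with the equal-variance test, 0 in the fit of all 20, and 1 to 2 on omission of a tissue. In cSCC vs. NS the 2 lower became 7 with an unadjusted p, 9 with the equal-variance test, 6 in the fit of all 20, 4 with library size alone, 1 with voom, with no filter and without replicates 20 and 21, and 1 to 5 on omission of a tissue, the 5 without replicate 18. The median of -0.49 became -0.82 with library size alone, -0.31 without replicates 20 and 21 and -0.62 to -0.38 on omission. In cSCC vs. AK the 0 higher became 1 with an unadjusted p, and the 4 lower became 7 with it, 11 with the equal-variance test, 2 without replicates 20 and 21 and 2 to 8 on omission, the 8 without replicate 18 and the 2 without replicate 20. Its median of -0.36 became -0.65 with library size alone, -0.55 with no filter, -0.16 without replicates 20 and 21 and -0.53 to -0.32 on omission. The cause was not tested. Library size alone moved the median of all genes from 0.14 to -0.17 in cSCC vs. NS and from 0.17 to -0.09 in cSCC vs. AK. Over all genes the number called lower in cSCC vs. NS ran from 540 with voom to 1874 with the equal-variance test, against 926, and in AK vs. NS 5 genes were higher and 4 lower in the fit of all 20, against 264 and 278. Among the genes called in some comparison or with an unadjusted p under 0.05, reversed values were those of Dhcr7 in cSCC vs. AK (0.11), which was -0.09 with voom, -0.18 with library size alone and without replicates 20 and 21, -0.14 with no filter, -0.06 in the fit of all 20, -0.08 with the equal-variance test, -0.04 with library size without haemoglobin and -0.44 to 0.31 on omission, of Hsd17b7 in cSCC vs. NS (0.00 without replicates 20 and 21) and of Gpam in cSCC vs. NS (3.12), which was -0.47, the lowest, without replicate 21, at most 3.52 on omission, and -1.88 without 20 and 21. Of the 84 fold changes of all members, 24 changed sign under some alternative, none of them called, the largest being 0.34 in size. Of the recomputed counts and medians 173 stayed within 1.5 times or the spread of the samples and 52 did not. Members under 3.78 CPM could not be measured in every library.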
